A study of Mus musculus with 13 samples.

Results

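The 10 transcripts described here are 1 transcript each of MKI67, TOP2A, CCNB1, PLK1, BUB1, BUB1B, CCNA2, KIF11, CENPE and CENPF, human genes used as markers of dividing cells. They were listed by transcript ID, and a gene symbol below stands for that 1 transcript, and all 10 were found among the 244939 transcripts in each file. RNA came from 13 mammary tumours, 7 of vehicle-treated and 6 of OCA-treated mice, where OCA is obeticholic acid, an agonist of the bile acid receptor FXR. Every tumour was seeded orthotopically in a female NSG mouse aged 12 to 13 weeks with MDA-MB-231 cells, an established human line of triple-negative breast cancer. Vehicle mice were gavaged daily with 40% DMSO and 60% polyethylene glycol, and OCA mice with 30 mg per kg OCA in the same mixture, for a stated growth time of 14 days. NSG mice lack mature lymphocytes, although the labels call them immunocompetent, and the tumours represent 1 cell line. By the protocols 8 mice received vehicle and 7 received OCA, so 1 mouse of each group was not sequenced. The labels do not say outright that each library is a separate mouse. They number the libraries singly and the protocols count mice, and on that reading the spread between libraries is a spread between tumours.

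Most of these genes are switched on together late in the cell cycle, in G2 and mitosis, and their RNA is low in resting cells. Cyclins A2 and B1 drive cyclin-dependent kinases into mitosis, and the kinase PLK1 acts with them at entry and through exit. BUB1 and BUBR1 (the product of BUB1B) belong to the spindle assembly checkpoint, which holds chromosome separation until every kinetochore is attached. The motor KIF11 pushes the spindle poles apart, CENPE carries chromosomes along microtubules, and CENPF sits at the kinetochore. TOP2A untangles DNA strands, and Ki-67, the product of MKI67, coats mitotic chromosomes and is the usual stain for dividing tumour cells.

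All 10 transcripts were well measured, with 1214 to 23939 estimated reads per library. The libraries held 34015674 to 50596490 estimated reads, and the 3 under 40000000 were vehicle replicates 2, 3 and 5. Vehicle replicates 1 and 4 and OCA replicate 2 stood apart from the other 10 libraries on the first principal component of all tested transcripts, which held 14.4% of the variance. Between any pair of libraries, log2 CPM of transcripts that averaged 10 CPM or more correlated at r = 0.777 to 0.872, so no library was a copy of another. By label number there are 2 series: a lower one, 4340 to 4351, holding 3 vehicle and 4 OCA tumours, and an upper one, 4371 to 4385, holding 4 vehicle and 2 OCA tumours. No label explains these numbers, and the series was handled as a possible batch. Markers of the tumour line and of host cells could not be checked, because the files carry transcript IDs without gene names. In bulk tumours, a smaller share of dividing cells and less RNA per cell cannot be told apart.

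Levels were compared between transcripts in TPM, a unit scaled to library size and corrected for length. TOP2A was the most abundant, at 68.0 ± 13.3 TPM (SD, n = 13), and exceeded every other member in all 13 tumours. PLK1 followed at 35.3 ± 5.52 TPM (SD, n = 13), above CCNA2 in all 13 tumours. CCNA2 measured 30.2 ± 4.93 TPM (SD, n = 13), KIF11 21.2 ± 2.61 TPM (SD, n = 13) and CCNB1 19.7 ± 3.09 TPM (SD, n = 13). KIF11 lay above CCNB1 in 10 of the 13 tumours, and their ranges overlapped. CENPF measured 14.7 ± 2.30 TPM (SD, n = 13). The checkpoint transcripts BUB1B and BUB1 were alike in level, at 11.4 ± 1.67 and 11.1 ± 2.74 TPM (SD, n = 13), with BUB1B higher in 7 of 13 tumours. MKI67, at 7.45 ± 1.64 TPM (SD, n = 13), and CENPE, at 5.08 ± 0.817 TPM (SD, n = 13), were the least abundant. A level here is that of 1 transcript per gene, and other transcripts of the same gene were not added.

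None of the 10 members passed the threshold between OCA and vehicle tumours. By edgeR's quasi-likelihood test with Benjamini-Hochberg adjustment over 74973 transcripts, 0 of 10 had an adjusted p under 0.05 (all at 1), against 0 of all transcripts (0%). At an unadjusted p under 0.05 there were 2 members, CCNB1 and PLK1, against 2.77% of all transcripts and 5.67% of the 14710 transcripts that averaged 10 CPM or more (read counts scaled to library size). The member count was 0 when vehicle replicate 3, 5 or 6 or OCA replicate 2 or 4 was left out, and 3 when vehicle replicate 7 or OCA replicate 1 was. DESeq2 called 0 of 10 members, against 410 transcripts (0.375%) without a low-count filter and 12 (0.0608%) with it, and limma-voom called 0 of 10, against 0%. The log2 fold change, OCA against vehicle, was below 0 for 8 of 10 members, against 55% of the transcripts with at least 10 CPM and 49% of all transcripts tested. Its median over the members was -0.15, and over those transcripts -0.02, and without OCA replicate 2 the members' median was -0.07. These counts describe the list and are not a test of it, since the members varied together between tumours.

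**Figure D1:**
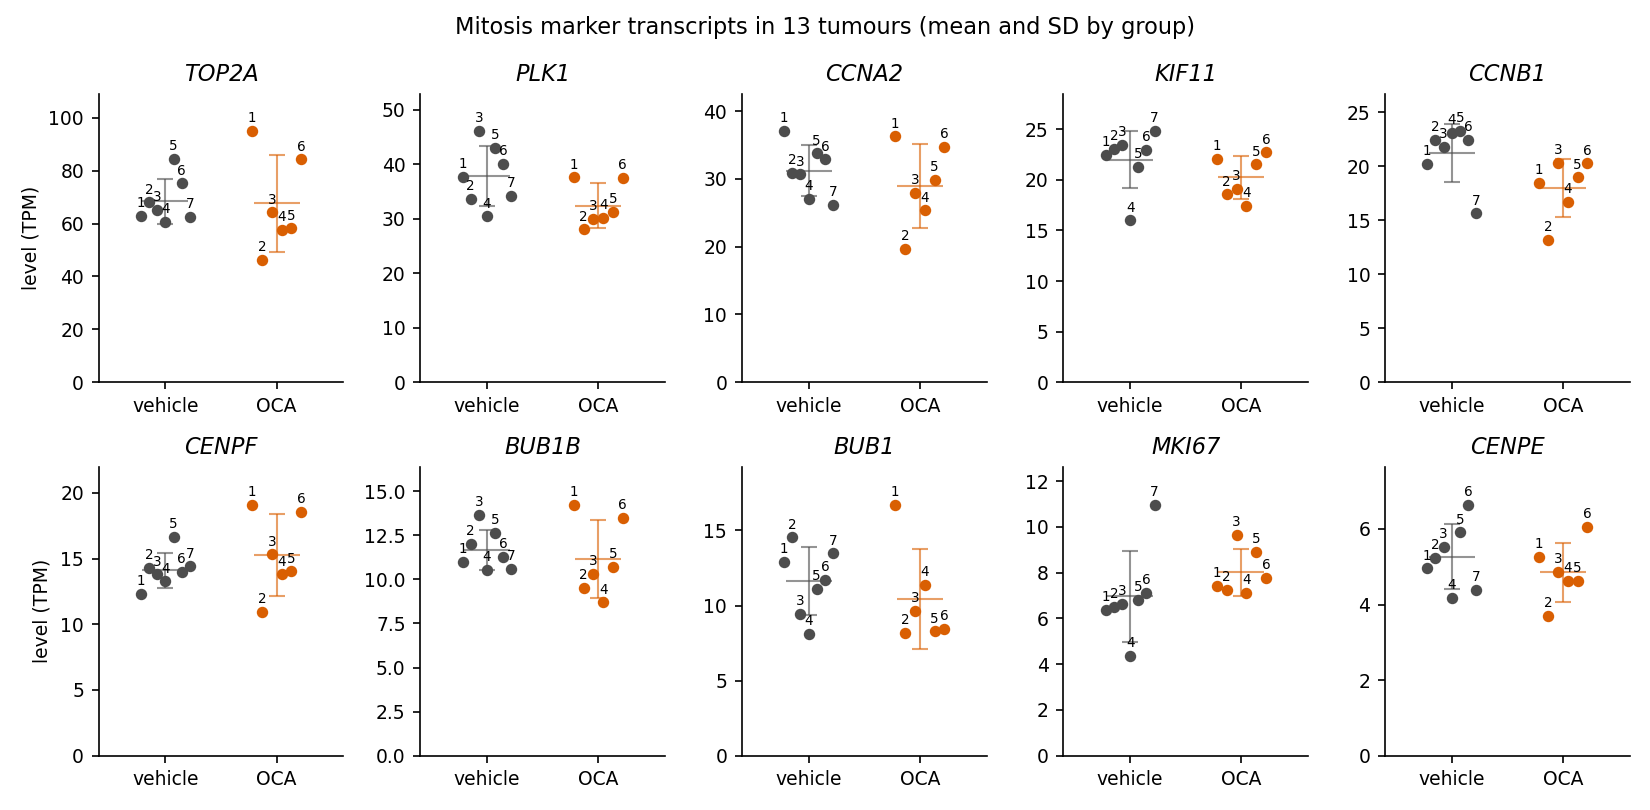
Level in TPM (vertical axes, from 0) of each transcript in the 7 vehicle tumours (grey) and 6 OCA tumours (orange), with the replicate number above each point and the mean and SD of each group. The groups overlapped for every transcript, and CCNB1 and PLK1 had no OCA tumour above the vehicle mean.

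Among the genes of mitotic entry, CCNB1 (ENST00000256442) had the largest difference. It measured 15.6 TPM at the lowest, 22.4 at the median and 23.2 at the highest in vehicle tumours, and 13.2, 18.7 and 20.3 in OCA tumours. All 6 OCA tumours lay below the vehicle mean of 21.3 TPM, and 6 of the 7 vehicle tumours lay between 20.2 and 23.2 TPM. The exception was vehicle replicate 7, at 15.6 TPM. The fold change was 0.821 on the linear scale, with a 95% interval of 0.684 to 0.985, and -0.28 on the log2 scale (SE 0.12). Without vehicle replicate 7 the log2 value was -0.36 (SE 0.10, edgeR adjusted p = 1), and over all 13 omissions of a single library it ran from -0.36 to -0.21.

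PLK1 (ENST00000300093) had the next smallest p. Its lowest, median and highest levels were 30.4, 37.6 and 46.1 TPM in vehicle tumours and 28.1, 30.7 and 37.6 TPM in OCA tumours. Again all 6 OCA tumours lay below the vehicle mean of 37.9 TPM, with OCA replicates 1 and 6 just under it. OCA replicates 2, 3 and 4 were below every vehicle tumour. The log2 fold change was -0.26 (SE 0.12), a fold of 0.832 with a 95% interval of 0.697 to 0.994. CCNA2 (ENST00000274026), whose cyclin acts from S phase into early mitosis, had a log2 fold change of -0.15 (SE 0.14), which was -0.05 without OCA replicate 2 and -0.22 without OCA replicate 1. It spread from 26.2 to 37.0 TPM in vehicle and from 19.6 to 36.3 TPM in OCA tumours, so the OCA range covered most of the vehicle range and extended below it.

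These values were also taken with regard to the label series. With the series as a covariate, CCNB1 stood at -0.28 and PLK1 at -0.23 on the log2 scale (SE 0.13 and 0.12), and neither kept an unadjusted p under 0.05. Within the lower series the values were -0.17 and -0.15 (SE 0.17 and 0.15). They were -0.42 and -0.32 within the upper series (SE 0.20 and 0.20). Over all members the median was 0.01 within the lower series, with 5 of 10 above 0, and -0.17 within the upper series, with 2 of 10 above 0. For transcripts with at least 10 CPM it was -0.02 within each series. The upper series holds OCA replicate 2, the tumour with the lowest levels, as 1 of its 2 OCA libraries. Its vehicle libraries include all 3 under 40000000 reads, vehicle replicates 2, 3 and 5. Without these 3 libraries, CCNB1 stood at -0.21 and PLK1 at -0.16 over both series (SE 0.15 and 0.12). Neither then had an unadjusted p under 0.05 (edgeR). The difference between the series was not tested.

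The spindle checkpoint transcripts did not separate the groups. BUB1B (ENST00000287598) ran from 10.5 to 13.6 TPM in vehicle and 8.69 to 14.2 TPM in OCA tumours, with a log2 fold change of -0.10 (SE 0.13). BUB1 (ENST00000302759) ran from 8.09 to 14.5 TPM in vehicle and 8.17 to 16.7 TPM in OCA tumours, with a log2 fold change of -0.19 (SE 0.19). A single tumour, OCA replicate 1, carried the highest BUB1 level, while 5 of 6 OCA tumours lay below the vehicle mean of 11.6 TPM. Without OCA replicate 1 the BUB1 value was -0.38 (SE 0.14, edgeR adjusted p = 1). It was -0.12 without OCA replicate 2. Within the upper label series BUB1 stood at -0.56 (SE 0.18) and within the lower at 0.03 (SE 0.29), and it passed the adjusted threshold in neither. Of the 10 members BUB1 varied most between tumours, with a coefficient of variation of CPM of 24.9%, above that of 74.9% of transcripts with at least 10 CPM.

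Among spindle and kinetochore transcripts, KIF11 (ENST00000260731) was also the steadiest of all 10 members, with a coefficient of variation of 13.0% against a median of 17.96% for transcripts with at least 10 CPM, and its log2 fold change was -0.16 (SE 0.10). KIF11 spanned 16.0 to 24.8 TPM in vehicle and 17.5 to 22.7 TPM in OCA tumours. Vehicle replicate 4 alone lay outside the span of 21.3 to 24.8 TPM that held the other vehicle tumours. Without it the KIF11 log2 fold change was -0.22 (SE 0.08, edgeR unadjusted p = 0.0146) and did not pass the adjusted threshold. Over all omissions of a single library the KIF11 value ran from -0.22 to -0.12. CENPE (ENST00000265148) had a log2 fold change of -0.16 (SE 0.14), at 4.18 to 6.64 TPM in vehicle and 3.70 to 6.06 TPM in OCA tumours. CENPF (ENST00000366955) had one of 0.08 (SE 0.12), which was 0.00052 without OCA replicate 1 and 0.16 without OCA replicate 2, at 12.3 to 16.7 TPM in vehicle and 10.9 to 19.1 TPM in OCA tumours. OCA replicates 1 and 6 exceeded every vehicle tumour in CENPF, and OCA replicate 2 lay below every one.

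TOP2A (ENST00000423485) had almost equal group means and unequal spread. Its lowest, median and highest levels were 60.6, 65.3 and 84.4 TPM in vehicle tumours and 46.3, 61.2 and 94.97 TPM in OCA tumours. The means were 68.4 ± 8.56 (SD, n = 7) and 67.6 ± 18.3 TPM (SD, n = 6). Both the highest and the lowest tumour of the 13 were OCA tumours, replicates 1 and 2. The log2 fold change was -0.06 (SE 0.16), and it took either sign as single libraries were left out, from -0.18 without OCA replicate 1 to 0.03 without OCA replicate 2.

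MKI67 (ENST00000368654) had the highest log2 fold change of the members, 0.17 (SE 0.16). Vehicle tumours measured 4.36 TPM at the lowest, 6.62 at the median and 10.97 at the highest, and OCA tumours 7.12, 7.60 and 9.64. All 6 OCA tumours lay above the vehicle mean of 6.96 TPM. Every OCA value nevertheless lay inside the vehicle range, which was set by vehicle replicates 4 and 7 at its ends. The log2 value was 0.29 without vehicle replicate 7 (SE 0.12, edgeR adjusted p = 1) and 0.08 without vehicle replicate 4. Set against TOP2A, MKI67 amounted to 10.3 ± 3.37 TPM per 100 TPM of TOP2A in vehicle tumours (SD, n = 7) and 12.6 ± 3.37 in OCA tumours (SD, n = 6). The ratios ran from 7.20 to 17.5 in vehicle and from 7.82 to 15.6 in OCA tumours, and without vehicle replicate 7 the vehicle range was 7.20 to 10.1. The difference of the mean ratios was 2.26, and 3.47 without vehicle replicate 7. It was 1.65 without OCA replicate 2 and 0.996 without the 3 libraries set apart on the first principal component.

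The intervals bound what these tumours could hold. Over the 10 members the 95% intervals of the fold change ran from 0.665, the lower end for BUB1, to 1.42, the upper end for MKI67. No interval therefore reached a 2-fold difference in either direction. All but those of CCNB1 and PLK1 included a fold of 1, and both of these also included it when vehicle replicate 3, 5 or 6 or OCA replicate 2 or 4 was left out. The interval of CCNB1 but not PLK1 included it without vehicle replicate 2 or 4. That of PLK1 but not CCNB1 included it without vehicle replicate 1 or OCA replicate 3. Without OCA replicate 5, only 1 member had an unadjusted p under 0.05 (edgeR). At least 1 of the CCNB1 and PLK1 intervals therefore included a fold of 1 there as well. A p above the threshold does not show that the groups were equal.

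**Figure D2:**
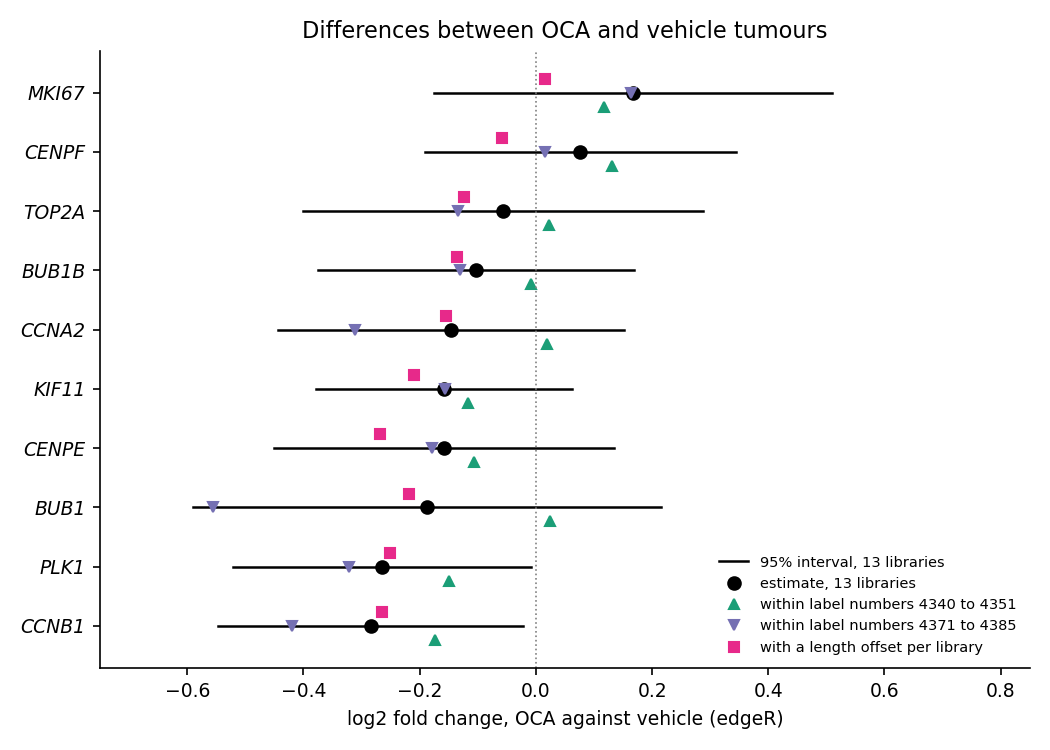
Log2 fold change of each transcript, OCA against vehicle (horizontal axis, edgeR), with its 95% interval over 13 libraries (black), and the estimates within each label series and with a length offset per library. Estimates within the lower series (green) lay nearer to 0 than those within the upper series (purple) for 9 of the 10 transcripts, all but CENPF, and the length offset moved MKI67 from 0.17 to 0.01.

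Length differed among the members and moved with treatment in these libraries. The transcripts are 2029 bases (CCNB1) to 12716 bases (MKI67) long, and 5 of the 10 have at least 4000 bases. Transcripts of that length took 26.6% ± 0.564 of the reads in vehicle libraries (SD, n = 7) and 28.0% ± 0.743 in OCA libraries (SD, n = 6), with a two-sided exact permutation p of 0.0035 over 1716 splits. That measure was chosen with earlier results known, and its p does not cover the choice. The stated minimum RNA integrity number was 6 for all libraries, and RNA quality was not compared between the groups. Within the lower and upper series the difference was 1.29 and 1.18 percentage points (exact permutation p = 0.0857 and 0.0667, where 0.0286 and 0.0667 are the smallest possible). Among transcripts with at least 10 CPM and at least 8000 bases, 77.5% of 944 were higher in OCA, with a median log2 fold change of 0.11. The members of that length are MKI67 at 0.17, CENPF at 0.08 and CENPE at -0.16. Between 2000 and 4000 bases the median was -0.03 over 4805 transcripts, and the 5 members there (CCNB1, PLK1, BUB1, BUB1B and CCNA2) had a median of -0.19.

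With an offset for length fitted in each library, the values of the longest members were lower. MKI67 came to 0.01, CENPF to -0.06 and CENPE to -0.27 on the log2 scale, while CCNB1 and PLK1 stayed near their values at -0.27 and -0.25. On that scale 9 of 10 members were below 0, and the share of all transcripts below 0 was not counted. The members' median was -0.18, against -0.04 over transcripts with at least 10 CPM. In that fit 0 of 10 members and 0 of all 74973 transcripts passed the threshold (edgeR). Across the 13 tumours, log2 CPM of MKI67 and the share of reads on long transcripts correlated at Pearson r = 0.573 (permutation p = 0.0388, adjusted p = 0.388 over 10 members) and Spearman rho = 0.725 (permutation p = 0.00667, adjusted p = 0.0667). Without the 2 libraries farthest from the median share, r was 0.551. Neither measure passed after adjustment for any member. The part of length in the MKI67 difference was not otherwise tested.

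The summed level of the 10 transcripts varied more between tumours of a group than between the groups. The 10 members summed to 230.4 ± 19.6 TPM in vehicle tumours (SD, n = 7), from 198 to 259, and to 217 ± 39.5 TPM in OCA tumours (SD, n = 6), from 165 to 272. The difference of the means, -13.4 TPM, was smaller than the SD of either group. OCA replicate 1 had the highest sum of all 13 tumours and OCA replicate 2 the lowest. OCA replicate 2 was the lowest tumour for 6 of 10 members (TOP2A, PLK1, CCNA2, CCNB1, CENPE and CENPF). It belongs to the 3 libraries set apart on the first principal component, as does vehicle replicate 4, the lowest tumour for 3 of 10 (BUB1, KIF11 and MKI67). OCA replicate 1 was the highest for 4 of 10 (TOP2A, BUB1, BUB1B and CENPF). The share of all transcripts at their lowest or highest in these tumours was not counted, so these counts are not particular to the members. Without OCA replicate 2 the difference of the sums was -3.11 TPM, and without OCA replicate 1 it was -24.5 TPM. Without the 3 libraries set apart, 2 of 10 members were above 0 and the median log2 fold change was -0.14. Without the 3 vehicle libraries under 40000000 reads, 4 of 10 were above 0 and the median was -0.10. For transcripts with at least 10 CPM the median was -0.02 after either omission.

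**Figure D3:**
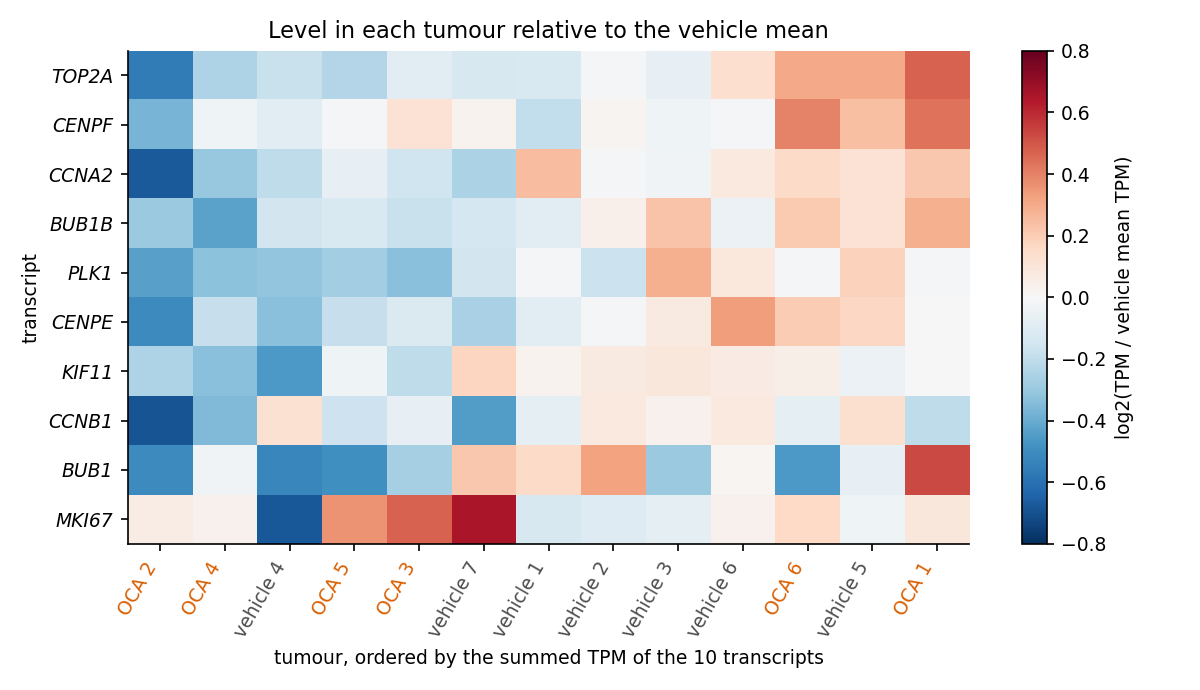
Log2 ratio of each transcript's TPM to its mean in vehicle tumours (colour), with 1 column per tumour ordered by the summed TPM of the 10 transcripts (OCA names in orange, vehicle names in grey). OCA tumours occupy both ends of the order, and MKI67 in the bottom row does not follow it.

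Members other than MKI67 and BUB1 tended to be high or low in the same tumours. Over the 13 tumours, log2 CPM correlated positively in all 36 pairs formed without MKI67, with a median Pearson r of 0.64 and a range of 0.11 to 0.91. After adjustment over all 45 pairs, 18 passed by Pearson and 14 by Spearman permutation tests, all positive, and none of them involved MKI67 or BUB1. The closest pair was TOP2A and CENPF (r = 0.91, Spearman rho = 0.82, permutation p = 3e-05 and 0.001, adjusted p = 0.00135 and 0.00669). Without the 2 tumours farthest from the median of TOP2A its r was 0.85. CCNA2 was also closest to TOP2A (r = 0.84, rho = 0.84, permutation p = 0.00023 and 0.00053, adjusted p = 0.005175 and 0.00596), with r = 0.82 without the same 2 tumours. PLK1 and CENPE were each other's closest partners (r = 0.83, rho = 0.83, permutation p = 0.0006 and 0.00079, adjusted p = 0.0054 and 0.00669), with r = 0.85 without the 2 tumours farthest from the median of PLK1. Without the 2 tumours farthest from the median of the other member, these r were 0.81 (CENPF), 0.71 (CCNA2) and 0.80 (CENPE). By comparison, the median r of TOP2A with transcripts of at least 10 CPM was 0.05. Points of a pair share their library, depth and scaling.

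That covariation was seen inside each group. For the 36 pairs without MKI67, the median r was 0.52 among the 7 vehicle tumours and 0.83 among the 6 OCA tumours, and 0.63 after subtracting each group's mean. It was 0.54 in the lower and 0.81 in the upper label series. Without the 3 libraries set apart it was 0.62, and 8 of 45 pairs passed after adjustment (Pearson permutation test). Without OCA replicate 2 it was 0.51. BUB1 was the least tied of these 9 members, with a median r of 0.33 to the other members and KIF11 as its closest partner (r = 0.50, permutation p = 0.0835, adjusted p = 0.150; rho = 0.51, permutation p = 0.0778, adjusted p = 0.141). Without the 2 tumours farthest from the median of BUB1 that r was 0.47.

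MKI67 did not share the pattern of the other members at a level that passed a test. Its median r to the other 9 was -0.01, from -0.46 with CCNB1 (permutation p = 0.117, adjusted p = 0.182; rho = -0.45, permutation p = 0.125, adjusted p = 0.201) to 0.41 with KIF11 (permutation p = 0.167, adjusted p = 0.243; rho = 0.13, permutation p = 0.670, adjusted p = 0.735). The r with CCNB1 was -0.15 without the 2 tumours farthest from the median of MKI67, and the r with KIF11 turned to -0.34. Without the 2 tumours farthest from the median of the partner, they were -0.44 with CCNB1 and -0.12 with KIF11. With other omissions the r with CCNB1 was farther from 0, at -0.65 without the 3 libraries set apart and -0.62 without OCA replicate 2. Vehicle replicate 7 had the highest MKI67 level of the 13 tumours with the second lowest CCNB1 level, whereas vehicle replicate 4 had the lowest MKI67 level with a CCNB1 level of 23.1 TPM, next to the highest. Without the 3 libraries set apart, r with MKI67 was below 0 for all 9 partners, from -0.65 to -0.04, with 0 of 9 past the adjusted threshold. The median r of MKI67 to its 9 partners was 0.14 in vehicle tumours, 0.08 in OCA tumours and 0.12 after subtracting each group's mean. Single pairs differed between the groups: r with CCNB1 was -0.70 in vehicle and 0.58 in OCA tumours, and with KIF11 0.81 and 0.12. These values within groups were not tested.

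**Figure D4:**
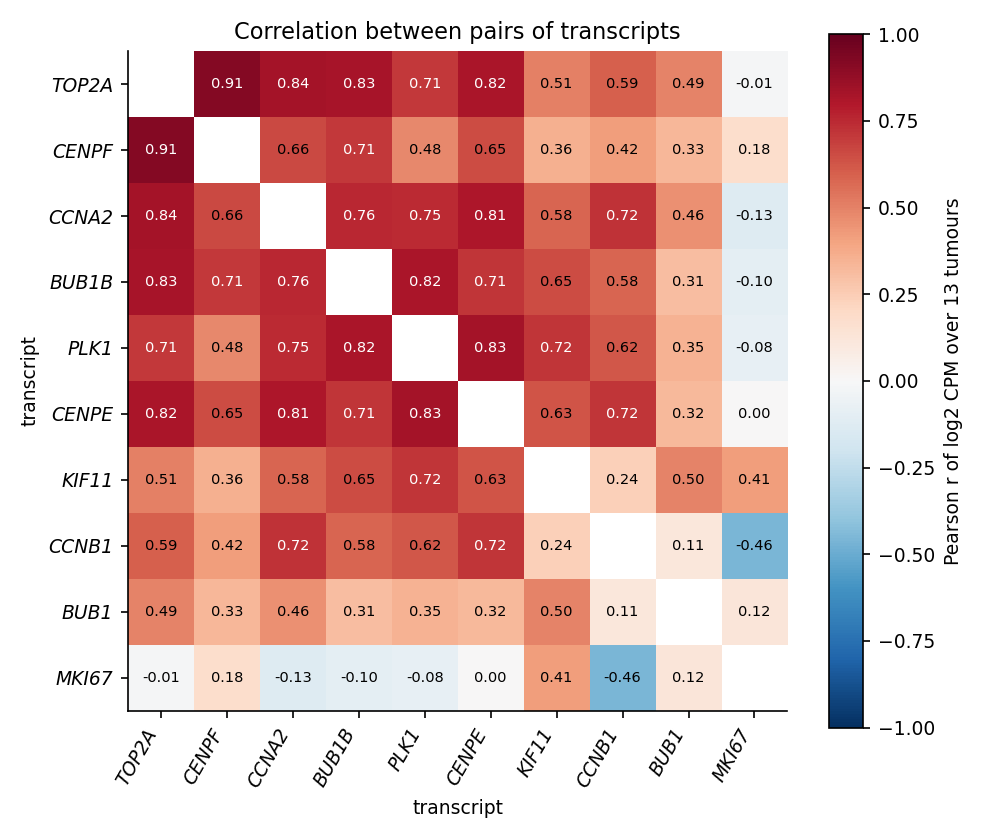
Pearson r of log2 CPM between each pair of transcripts over 13 tumours (colour and number). Among TOP2A, CENPF, CCNA2, BUB1B, PLK1 and CENPE, placed side by side by hand, r runs from 0.48 to 0.91. Outside them, CCNB1 reaches 0.72 with CCNA2 and KIF11 reaches 0.72 with PLK1. The MKI67 row runs from -0.46 to 0.41.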

How the data were processed

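The authors deposited, per the file headers, 1 Salmon table per library with an estimated count of reads and a TPM value for each transcript. Build GRCh38.p14 and FastQC, STAR, Salmon and DESeq2, with no versions, appear in the submitters' processing notes. The sources used here do not state the transcript annotation or how reads of mouse host cells were handled, and such reads were not separated here. Estimated counts share reads between transcripts of a gene, so the spread of a transcript includes assignment error. Replicates are numbered in accession order and pair nothing.

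Members were matched by ID, with the names given in the rule that lists them. The members, lists and tests were chosen with earlier results of these data known. By rule all 10 members are named, and fuller values go to MKI67, CCNB1, the 2 smallest p and the extreme fold changes. A list of other mitosis genes and cell type markers needs a human ID table and was not analysed here, and no human sequence was at hand.

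Counts were rounded, filtered with edgeR's filterByExpr (minimum 10, total 15), scaled by TMM and tested with edgeR 4.0.16, robust quasi-likelihood F test, two-sided, Benjamini-Hochberg adjusted over all transcripts, threshold 0.05. SE is the size of the log2 fold change over the square root of F, and 95% intervals use the fit's degrees of freedom. Correlations use log2 CPM (prior count 2) and 100000 resamples. Alternatives were DESeq2 1.42.0, limma 3.58.1 (also on log2(TPM + 1) and log2(TPM + 0.1)), other scalings and filters, the label series, a lowess length offset (span 0.3), and leaving out libraries. Scripts were tested on simulated data.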

Additional observations from a re-analysis of the deposited data

Results flagged for a closer look

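In groups of 6 or 7 tumours, 4 values lay farther from their group than Dixon's test at the 95% level allows. MKI67 in vehicle replicate 7 measured 10.97 TPM, where the next highest vehicle tumour had 7.12 TPM. CCNB1 in the same tumour measured 15.63 TPM, where the next lowest had 20.2 TPM. This tumour was thus set apart upward in one marker and downward in another. BUB1 in OCA replicate 1 measured 16.72 TPM, where the next highest OCA tumour had 11.4 TPM, with a gap just past the limit (0.626 of the range against 0.625). KIF11 in vehicle replicate 4 measured 15.99 TPM, where the next lowest had 21.3 TPM. Chance flags about 1 in 20 groups, or 1.1 of the 22 looked at, which were the 10 members and their sum in both groups, and members that vary together do not count as separate.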

How the results depend on the processing

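No paired analysis was possible because the labels give each library a number of its own that vehicle and OCA groups do not share. The count of 0 members past the threshold held in all 31 alternatives, with lowest adjusted p values, for CCNB1 and PLK1, of 0.490 by edgeR without a low-count filter. The count of all transcripts past it was 410 with DESeq2, 12 with DESeq2 after the filter, 1 with limma on log2(TPM + 0.1), 1 without the 3 libraries apart on the first component and 0 to 1 with each library left out. Members above 0, 2 of 10, became 5 within the lower label series, 1 with the length offset, 4 without the 3 libraries under 40000000 reads and 2 to 3 with single libraries left out. Log2 fold changes turned sign to 0.0223 for TOP2A, 0.0251 for BUB1 and 0.0196 for CCNA2 within the lower series, to 0.0269 for TOP2A and 0.0192 for BUB1B without the 3 libraries under 40000000 reads, and to -0.0589 for CENPF with the length offset. Single omissions left TOP2A between -0.181 and 0.0349. CCNB1, PLK1, KIF11 and CENPE were below 0, and MKI67 above, in all 31. Pairs past the adjusted threshold went from 18 to 8 without the 3 libraries apart, where fewer libraries were compared. For the share of reads on long transcripts, the difference was 1.29 and 1.18 points within the label series and missed the threshold there.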

Other observations

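Cyclin B1 RNA was also set against cyclin A2 RNA in each tumour, chosen after the levels were seen and given as values only. CCNB1 amounted to 68.6 ± 9.83 TPM per 100 TPM of CCNA2 in vehicle tumours (SD, n = 7) and 63.0 ± 7.57 in OCA tumours (SD, n = 6). The difference was -5.56, and leaving out vehicle replicate 4 gave -2.78, leaving out OCA replicate 1 gave -3.13 and leaving out vehicle replicate 1 gave -7.91. Vehicle replicate 4 had the highest ratio, 85.3, and OCA replicate 1 the lowest, 50.9.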
